A study of Homo sapiens with 11 samples.

Results

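The cytosolic ribosomal protein genes encode the proteins of the large and small subunit of the cytoplasmic ribosome. They were selected by symbol: RPL or RPS with a number, with an A or X suffix where the gene carries one, together with RPLP0, RPLP1, RPLP2 and RPSA. The rule found 77 genes, 46 of the large and 31 of the small subunit, among 23608 gene symbols. All groups were cultures of A549, an established cell line from a human lung adenocarcinoma, and the labels distinguish them by agent and time. Cells received the vehicle DMSO for 48 hours (2 libraries, replicates 2 and 3) or for 2 weeks (3 libraries), or cigarette smoke condensate (CSC) for 48 hours (3 libraries) or for 2 weeks (3 libraries). The dose of CSC is labelled 20 µM, although a condensate is a mixture and has no molarity of its own. The wider study addressed tobacco smoke, DNA methylation and enhancers, and these 11 libraries compare transcripts with and without CSC at each duration.

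A ribosome contains a single copy of most of these proteins, so a growing cell needs nearly equal amounts of all of them. Their genes sit on many chromosomes and their mRNAs are among the most abundant of the cell. Most of these mRNAs start with a C followed by a run of pyrimidines, the 5′ terminal oligopyrimidine (TOP) tract, through which the kinase MTOR and the RNA-binding protein LARP1 control their translation and stability. Proteins that find no place in a ribosome are degraded, and RPL5 and RPL11 in particular can then bind MDM2, the ubiquitin ligase of p53.

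Expression was given as FPKM (fragments scaled to transcript length and to the mapped fragments of the library), 1 value per gene and locus, which was summed where a symbol stood at several loci. The FPKM of a library summed to between 338507 and 484053, and the depth in reads is unknown. Judged by the width of the deposited bounds, CSC 2 weeks replicate 2 had a relative depth of 2.661, and the other 10 libraries ranged from 1 to 1.367. Of the 78 lines of the family above 0, 42 to 45 per library had an FPKM above their own deposited upper bound. In 0 lines it lay below the lower bound. Lines outside their bounds were left out of the depth estimate, and why the values exceed the bounds was not tested. All 5 epithelial markers reached an FPKM of 1, with sums of 1225 to 3554 led by KRT18, whereas of 6 alveolar type II markers only ABCA3 did so. Of 4 leukocyte markers only CD68 reached an FPKM of 1, of 3 endothelial markers none did, and of 4 fibroblast markers 2 did, with COL1A2 listed at 0 throughout. At 2 weeks the epithelial markers had a median log2 difference of -0.41 between CSC and DMSO with 0 of 5 called by limma and 2 at an unadjusted p under 0.05, and their part in the results below was not tested. Whether replicates were grown separately is not labelled, and the p-values therefore reflect only the spread among the libraries at hand, which may be technical. In bulk RNA of this kind, fewer cells of a type and less RNA per cell cannot be told apart.

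Ribosomal protein mRNAs dominated the upper end of expression. Of the 100 genes with the highest mean FPKM over the 11 libraries, 43 were ribosomal protein genes. The median of the 77 mean levels was 473.6 FPKM, with 410.5 in the large and 512.3 in the small subunit. RPLP1, a protein of the acidic stalk, had the highest mean level (1635 FPKM), followed in the large subunit by RPL41, the smallest ribosomal protein (1604), and RPL19 (953.7). In the small subunit RPS2 led (1184), and RPS16 (1158) was among the 3 highest. The means of RPLP1 and RPL41 differed by less than their spread over libraries, and so did those of RPS2 and RPS16. At the other end, 5 genes had a mean below 100 FPKM, among them RPL27A (47.2) and RPS23 (89.0). RPL22, whose protein also binds viral and cellular RNA, had a mean of 68.0, and RPS26, next to RPS23 the lowest of the small subunit, of 140.3. The 10 most abundant members held 28.63% of the summed level of the family.

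After 2 weeks of CSC, ribosomal protein mRNAs of both subunits were higher than in DMSO. The summed FPKM of the 77 genes was 36291, 37627 and 32203 in the DMSO libraries of 2 weeks (replicates 1 to 3) and 63472, 44172 and 49547 in the CSC libraries. All 3 CSC libraries lay above all 3 DMSO libraries, and replicate 1 stood highest. The log2 ratio of the sums was 0.55 with a pooled within-group SD of 0.21. As a share of all FPKM, the family held 9.14% ± 0.36 (SD, n = 3) in DMSO and 12.2% ± 0.87 (SD, n = 3) in CSC.

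**Figure D1:**
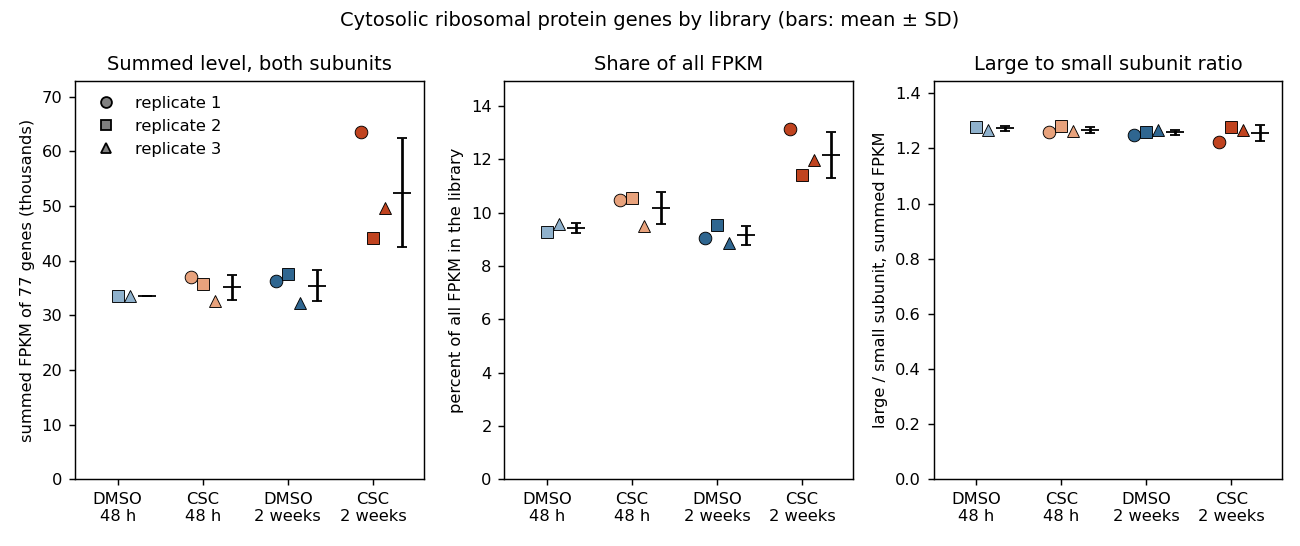
Summed FPKM of the 77 genes divided by 1000 (left), their share of all FPKM in percent (middle) and the ratio of large to small subunit sums (right) for each library by group. Symbols are replicates and bars are mean ± SD. The 3 CSC libraries of 2 weeks, at 63472, 44172 and 49547, lie above the other 8 in sum and share, while the ratio stays between 1.224 and 1.28.

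Gene by gene, 27 of the 77 rose at 2 weeks (limma, Benjamini-Hochberg adjusted p under 0.05 over 12506 genes) and 0 fell. That is 35.1% of the family, where 3.01% of all genes tested were called higher and 2.40% lower, 5.41% in either direction. The median log2 change was 0.53 in the family and 0.09 over all genes tested. Of the 77 values 76 were positive, as were 8137 of all 12506 genes. Without regard to the test, in 74 genes every CSC library lay above every DMSO library, a pattern found in 20.3% of all genes tested, and in 0 genes every CSC library lay below, against 9.84%. The exceptions were RPL21, RPS26 and RPL28. In 70 genes the 3 CSC libraries of 2 weeks lay above all 8 other libraries, against 1094 of all 12506 genes (8.748%).

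The count of calls depended on single libraries, in the family and over all genes. Among the DMSO libraries of 2 weeks, leaving out replicate 1, 2 or 3 gave 1, 3 and 0 calls. Of all genes 1.03%, 0.89% and 0.585% were then called higher. Among the CSC libraries of 2 weeks it gave 3, 73 and 1, against 0.754%, 10.5% and 0.714% of all genes. Libraries of 48 hours enter through the shared estimate of spread. Leaving out CSC replicate 1, 2 or 3 of 48 hours gave 16, 21 and 46, against 2.41%, 3.09% and 5.46%. With either DMSO library of 48 hours left out, which leaves 1 in that group, the family median was 0.53. The median log2 change of the family stayed between 0.39 and 0.64 in these fits. In a fit of the 6 libraries of 2 weeks alone 17 genes were called, against 4.66% of all genes called higher.

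**Figure D2:**
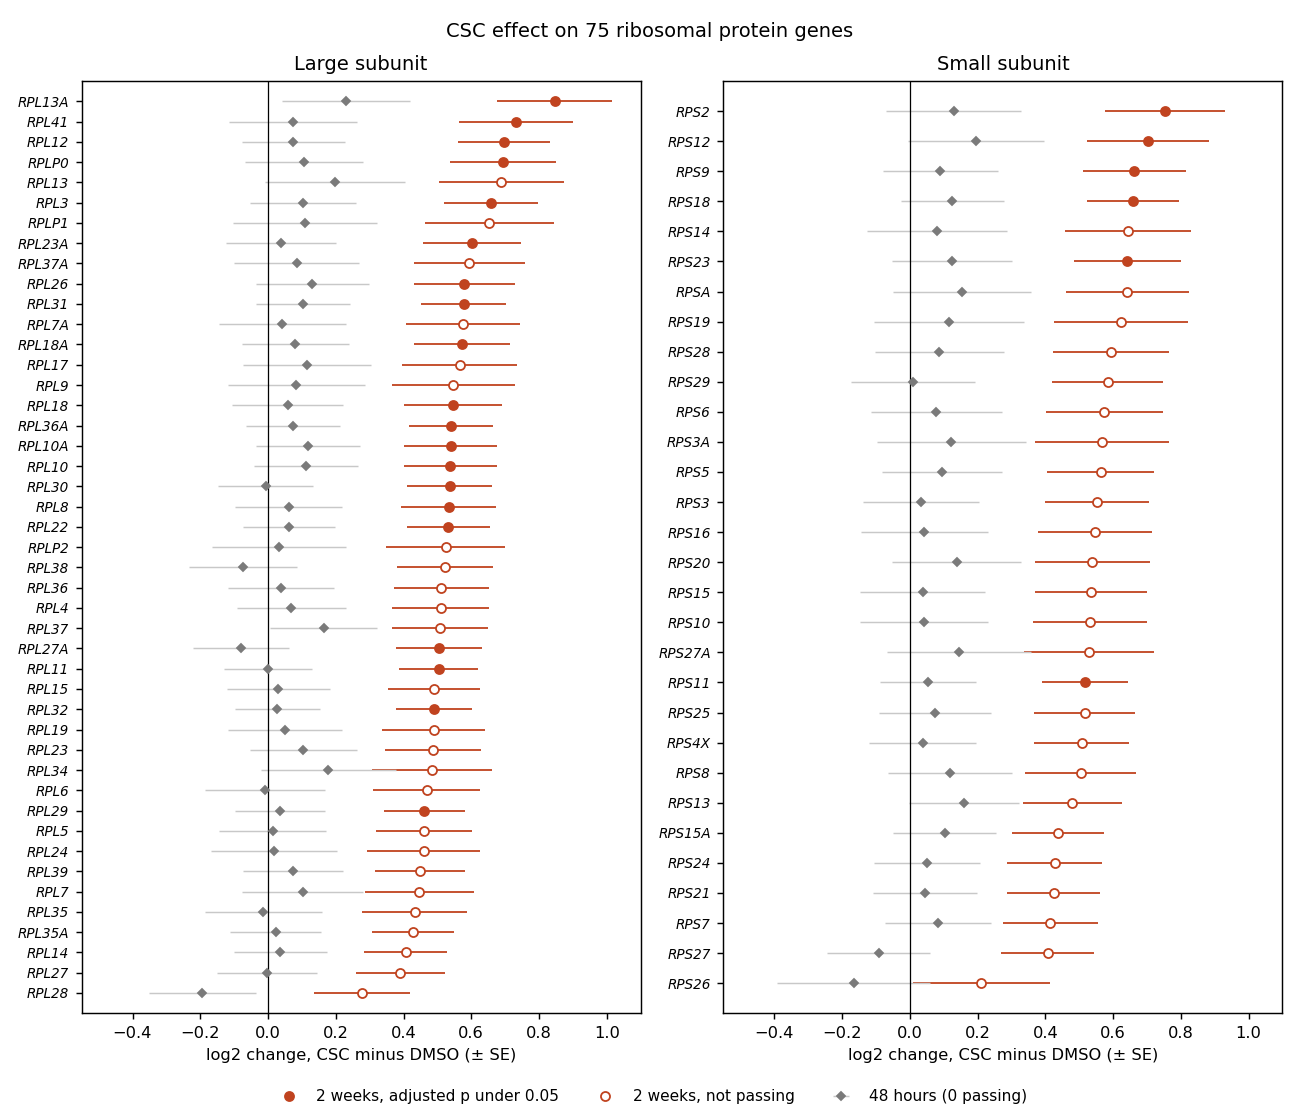
Log2 change with its SE for CSC against DMSO at 2 weeks (circles) and at 48 hours (diamonds) for 75 genes, ordered within each subunit by the value at 2 weeks. Filled circles passed the test. All 75 circles lie right of 0, from RPS26 at 0.21 to RPL13A at 0.85, and the diamonds scatter around 0.07.

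In the large subunit 20 of 46 genes rose (43.5%, against 3.01% of all genes called higher). The ribosomal stalk, where elongation factors dock, consists of RPLP0 and dimers of RPLP1 and RPLP2. RPLP0 (chromosome 12, positions 120634503 to 120639014, hg19) had an FPKM of 680.2, 646.6 and 585.5 in DMSO at 2 weeks and 1285, 849.0 and 996.9 in CSC. The CSC libraries lay well clear of the DMSO libraries. Its log2 change was 0.69 ± 0.16 (SE, adjusted p = 0.0248). RPLP1 and RPLP2 did not pass, with changes of 0.65 ± 0.19 (adjusted p = 0.0645) and 0.52 ± 0.18 (adjusted p = 0.0987), although their groups did not overlap either.

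RPL5 and RPL11 enter the ribosome together with the 5S RNA and are the MDM2 partners named above. RPL11 (chromosome 1, positions 24018269 to 24022915) was at 264.8, 295.0 and 256.4 in DMSO and at 405.2, 363.8 and 387.7 in CSC. The CSC libraries were closer together here than for most of the family and stood above all DMSO libraries. RPL11 rose by 0.50 ± 0.12 (adjusted p = 0.0265). RPL5 went from 302.4 ± 29.5 to 419.1 ± 74.1 FPKM (SD, n = 3 each) and missed the threshold (0.46 ± 0.14, adjusted p = 0.0758). Of all 9 listed proteins that can bind MDM2, RPL11 and RPL26 rose (22.2%, against 35.1% of the family and 3.01% of all genes called higher).

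Around the exit of the tunnel through which the nascent protein leaves, 3 of the 7 members listed rose (42.9%). The share called higher was 35.1% in the family and 3.01% among all genes. RPL23A, RPL26 and RPL31 rose, with log2 changes of 0.60 ± 0.14, 0.58 ± 0.15 and 0.58 ± 0.12. RPL17, RPL19, RPL35 and RPL39 had values of 0.43 to 0.57 that did not pass.

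The largest change of the family was that of RPL13A, which besides its place in the ribosome is known as part of an inhibitor of inflammatory mRNA translation (chromosome 19, positions 49990811 to 49995564). RPL13A was at 215.2, 214.2 and 180.1 FPKM in DMSO at 2 weeks and at 469.6, 298.7 and 344.7 in CSC. The groups were well apart, with replicate 1 of CSC again highest. It rose by 0.85 ± 0.17 (adjusted p = 0.0135), and the adjusted p was 0.0708 without DMSO 2 weeks replicate 3. Reads of RPL13A can fall on its processed pseudogene RPL13AP5, which is listed at a higher mean level, 719.3 FPKM, so that its own level is uncertain. The sum of the pair was 827.2 ± 80.8 in DMSO and 1440 ± 453 in CSC (SD, n = 3 each), again without overlap.

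RPL41 (chromosome 12, positions 56510374 to 56511616) was at 1322, 1472 and 1244 in DMSO and at 2866, 1899 and 2044 in CSC. Every CSC library exceeded every DMSO library by a wide margin. RPL41 rose by 0.73 ± 0.17 (adjusted p = 0.0265). RPL12, which binds at the base of the stalk (chromosome 9, positions 130209953 to 130213711), had the smallest p of the family. It was at 360.2, 394.5 and 330.6 in DMSO and at 676.1, 496.1 and 595.4 in CSC, a log2 change of 0.70 ± 0.14 (adjusted p = 0.0123). RPL22, RPL27A, RPL30 and RPL36A rose by 0.53, 0.51, 0.54 and 0.54. RPL19, RPL23, RPL34 and RPL37 had values of 0.49, 0.49, 0.48 and 0.51 that did not pass.

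In the small subunit 7 of 31 genes rose (22.6%, against 3.01% of all genes called higher). RPS2 and RPS3 line the channel where mRNA enters. RPS2 (chromosome 16, positions 2012062 to 2014827) was at 978.2, 985.1 and 876.4 FPKM in DMSO at 2 weeks and at 2091, 1263 and 1533 in CSC. The lowest CSC library was still above the highest DMSO library. RPS2 rose by 0.75 ± 0.18 (adjusted p = 0.0301), while RPS3 had a value of 0.55 ± 0.15 (adjusted p = 0.0555). RPS12 (chromosome 6, positions 133135708 to 133138703) was at 432.5, 446.8 and 390.4 in DMSO and at 922.5, 551.5 and 642.1 in CSC. Its CSC libraries were spread widely but stayed above DMSO, and it rose by 0.70 ± 0.18 (adjusted p = 0.0418).

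RPS23 rose too, by 0.64 ± 0.16 (adjusted p = 0.0366). RPS6, the ribosomal protein phosphorylated downstream of MTOR, was at 738.8, 754.6 and 596.3 in DMSO and at 1335, 841.0 and 977.8 in CSC. The groups did not overlap and CSC replicate 1 stood highest, but the change did not pass (0.57 ± 0.17, adjusted p = 0.0723). RPS19, the gene most often mutated in Diamond-Blackfan anaemia, an inherited failure of red cell production, went from 798.6 ± 90.7 to 1265 ± 402 (0.62 ± 0.20, adjusted p = 0.0828). Of 16 listed genes of this disease, 4 rose, among them RPL11, RPL18 and RPL26. That is 25%, against 35.1% of the family and 3.01% of all genes called higher. RPSA, also known as a laminin receptor, RPS16 and RPS27A, which is made as a fusion with ubiquitin, had values of 0.64, 0.55 and 0.53 (adjusted p = 0.0592, 0.0765 and 0.118).

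**Figure D3:**
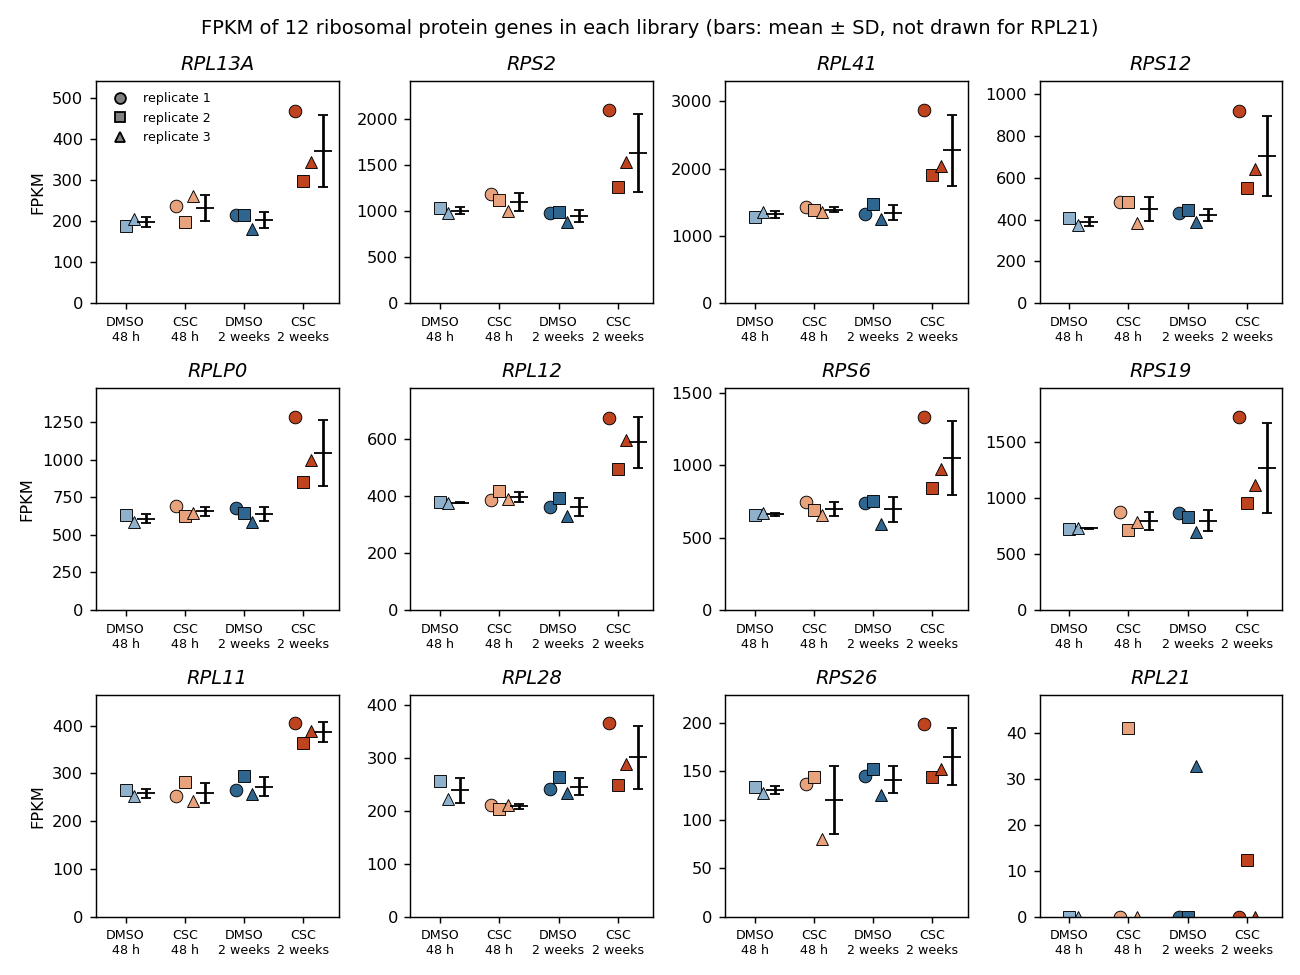
FPKM of 12 ribosomal protein genes in each library, by group, on linear axes that start at 0. Symbols are replicates and bars are mean ± SD, left out for RPL21. In 9 panels the 3 CSC libraries of 2 weeks lie above the rest. RPL28 and RPS26 overlap with DMSO, with RPS26 at 80.1 in CSC 48 hours replicate 3, and RPL21 is near 0 in 8 libraries.

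A few genes, RPL28, RPS26 and RPL21, did not separate the groups at 2 weeks. RPL28 (chromosome 19, positions 55897300 to 55903451) was at 241.2, 263.1 and 233.1 in DMSO and at 366.4, 249.3 and 289.1 in CSC. CSC replicate 2 fell between the DMSO libraries, and the log2 change of 0.28 ± 0.14 did not pass (adjusted p = 0.243). RPS26, which lies where mRNA leaves the small subunit (chromosome 12, positions 56435686 to 56438007), was at 145.7, 152.9 and 125.9 in DMSO and at 198.8, 144.2 and 152.1 in CSC. Apart from CSC replicate 1, the CSC libraries were within the range of DMSO (0.21 ± 0.20, adjusted p = 0.541).

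RPL21 (chromosome 13, positions 27825692 to 27830702) reached 41.1 FPKM in CSC 48 hours replicate 2, 32.7 in DMSO 2 weeks replicate 3 and 12.3 in CSC 2 weeks replicate 2, and was under 0.05 in the other 8 libraries. Its pseudogene RPL21P28 was listed at 444.3 on average, from 332.5 to 776.0. Reads of the gene may have been assigned to this copy, which was not tested, and no change of RPL21 itself is given. The sum of both was 398.5 ± 29.6 in DMSO at 2 weeks and 595.7 ± 161.8 in CSC (SD, n = 3 each). In all, 28 symbols of ribosomal protein pseudogenes were listed, 14 of them with a mean of at least 1 FPKM.

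The libraries differed in how far the family moved, and the members moved together. Relative to its mean over the 11 libraries, the median member stood at 0.69 (log2) in CSC 2 weeks replicate 1, at 0.19 in replicate 2 and at 0.36 in replicate 3. The median over all genes tested stood at 0.18, 0.02 and 0.12 in the same libraries, in the same order. The median of each related list described below had this order too. For mitochondrial ribosomal protein genes it was 0.45, 0.06 and 0.24 in replicates 1 to 3. The other groups did not share that order: CSC 48 hours replicate 3 had the lowest family median of its group (-0.25) and the highest median over all genes (-0.06), and DMSO 2 weeks replicate 1 was below replicate 2 in the family and above it over all genes. The order replicate 1, replicate 3, replicate 2 held in 74 of the 76 genes that reached an FPKM of 1 in every library, and 75 of these had their highest value in CSC 2 weeks replicate 1. The matching shares over all genes were not computed. CSC 2 weeks replicate 2, the lowest of its group, is also the library with the greatest relative depth, and the part of depth in this order was not tested. At the lower end, 29 genes had their lowest value in CSC 48 hours replicate 3 and 27 in DMSO 2 weeks replicate 3.

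Once the family median of each library was subtracted, single genes departed little from it. The SD of the departure over the 11 libraries had a median of 0.077 (log2) and was under 0.1 in 58 of 76 genes. Other lists were not measured in this way. RPS26 departed most (SD 0.23), with -0.53 in CSC 48 hours replicate 3. RPL13A followed (SD 0.18), with 0.34 in that same library and 0.25 in CSC 2 weeks replicate 1. RPL28 (SD 0.15) stood at 0.27 in DMSO 48 hours replicate 2 and at -0.17 in CSC 2 weeks replicate 2. When each library was scaled to the same ribosomal protein sum, RPS2 was higher in CSC at 2 weeks relative to the family (0.20 ± 0.08, adjusted p = 0.0477) and RPL28 lower (-0.27 ± 0.09, adjusted p = 0.0251), with 0 other ribosomal protein genes called by limma. Of all genes in that fit, 0.428% were called higher and 52.0% lower. RPL13A, at 0.29 ± 0.12 relative to the family, missed the threshold (adjusted p = 0.0505).

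With the FPKM as deposited, the balance of the subunits differed between CSC and DMSO by less than its spread. The ratio of the large to the small subunit sum was 1.25, 1.258 and 1.267 in DMSO at 2 weeks and 1.224, 1.279 and 1.268 in CSC. CSC replicate 1, the library with the highest family level, had the lowest ratio of the 11, and replicate 2 the highest of its group. The log2 difference of the ratio was -0.0013 with a pooled SD of 0.0248 at 2 weeks and -0.0054 with a pooled SD of 0.0114 at 48 hours. At 2 weeks it exceeded its pooled SD with the length trend removed (0.0274, SD 0.0167), under quantile normalization (0.017, SD 0.0161) and without CSC replicate 1 (0.0178, SD 0.0091), and at 48 hours without CSC replicate 2 (-0.0125, SD 0.0075). The median log2 change at 2 weeks was 0.52 in the large and 0.55 in the small subunit. More of the large than of the small subunit passed the test, 43.5% against 22.6%, where 3.01% of all genes were called higher. That difference between subunits was not tested.

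At 48 hours CSC had no called effect on the family. The summed FPKM was 33485 and 33500 in the DMSO libraries and 36995, 35698 and 32583 in the CSC libraries. CSC replicates 1 and 2 lay above both DMSO libraries and replicate 3 below them. The log2 ratio of the sums was 0.07 with a pooled SD of 0.07. In the test, 0 of the 77 genes were called by limma, where 0.104% of all genes were higher and 0.184% lower, 0.288% in either direction, and 0 had an unadjusted p under 0.05, as 8.49% of all genes did. The SE pools the spread of all 4 groups. The SD of the family sum was 9961 in CSC at 2 weeks, against 10.6 in DMSO and 2268 in CSC at 48 hours. So the 0 does not show that the family varied less than other genes at 48 hours. The family median was 0.07, against 0.00 for all genes, and 67 values were positive, as were 6296 of all 12506 genes. With the replicate block the median was 0.0021 and 41 values were positive. The median was 0.03 without CSC 48 hours replicate 1, 0.12 without replicate 3, 0.12 with a common sum and 0.05 with the length trend removed.

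RPL28, RPL13A and RPL37 had the smallest p at 48 hours. RPL28 was at 255.9 and 222.0 in DMSO and at 210.3, 203.8 and 210.7 in CSC (-0.19 ± 0.16, adjusted p = 0.834). RPL13A was at 188.7 and 205.6 in DMSO and at 237.6, 199.1 and 261.5 in CSC (0.23 ± 0.19, adjusted p = 0.834). RPL37 had a value of 0.16 ± 0.16 (adjusted p = 0.874). None of the 3 differences exceeded its error by much.

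The CSC effect was larger at 2 weeks than at 48 hours in 76 of 77 genes, but no single gene passed the test of that difference. Over all genes tested the difference was positive in 8059 of 12506. The median difference was 0.47, against 0.09 for all genes tested. It was 0.29 with a common sum, 0.28 with a common sum without small RNA, 0.23 with the length trend removed and 0.16 under quantile normalization, where 71 values were positive. By limma 0 genes of the family were called, where 0.00800% of all genes were called higher and 0.0320% lower, 0.0400% in either direction. An unadjusted p under 0.05 was found for 32 members (41.6%) and for 7% of all genes. RPL27A and RPL12 had the lowest adjusted p (0.630 each), with differences of 0.59 ± 0.19 and 0.62 ± 0.20, followed by RPL30 with 0.54 ± 0.19 (adjusted p = 0.640).

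In DMSO alone, 2 weeks and 48 hours of culture differed little. By limma 0 genes were called, where 0.656% of all genes were higher and 0.112% lower, 0.768% in either direction, and 0 members had an unadjusted p under 0.05, as 12.8% of all genes did. Here too the SE includes the wide spread of the family in the CSC libraries of 2 weeks, so the 0 does not show an unusually quiet family. The family median was 0.08 and that of all genes 0.09. With the FPKM as deposited 72 of 77 values were positive, as were 8535 of all 12506 genes. Under 4 other scalings and with the length trend removed the family median turned negative, to between -0.07 and -0.02. RPL23, RPL34 and RPL36A had the smallest p, with values of 0.24, 0.27 and 0.17 (adjusted p = 0.575, 0.623 and 0.683).

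The scaling of the libraries changed the size of the effect at 2 weeks and not its direction in the family median. The median of all genes shifted upward by 0.09 with the FPKM as deposited. Under median-of-ratios scaling that shift was 0.00, the family median was 0.43 and 27 genes were called, against 2.28% of all genes called higher. Scaling to a common FPKM sum gave 0.39 and 43 genes, against 2.11% of all genes. A common sum without small RNA symbols, which hold 20.15% to 25.19% of the FPKM, gave 0.36 and 43 genes, against 1.87%. Quantile normalization gave 0.22 and 21 genes, against 2.48%. The number of positive values was 76 of 77 under each of these scalings.

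Ribosomal protein transcripts are short, with a median canonical transcript of 785 bases against 3278 for the tested genes that had a length. These lengths came from a GENCODE annotation and need not be those behind the FPKM. For RPL37 the length of 7573 bases exceeds the span of its listed locus. Regressing each library on transcript length and removing the trend, a step added after the data were seen, brought the family median to 0.25 and the log2 ratio of the sums to 0.29, with 33 genes called and 75 values positive. Of all genes in that fit 2.8% were called higher. The fitted trend contains the family itself, and the part of transcript length in the change was not tested further. Within the family, the change at 2 weeks had a Spearman rho of 0.066 with transcript length, where the Pearson r was -0.14. The rho was 0.23 with GC content and 0.12 with the mean level. These values are over 76 genes, which share libraries and are not independent.

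**Figure D4:**
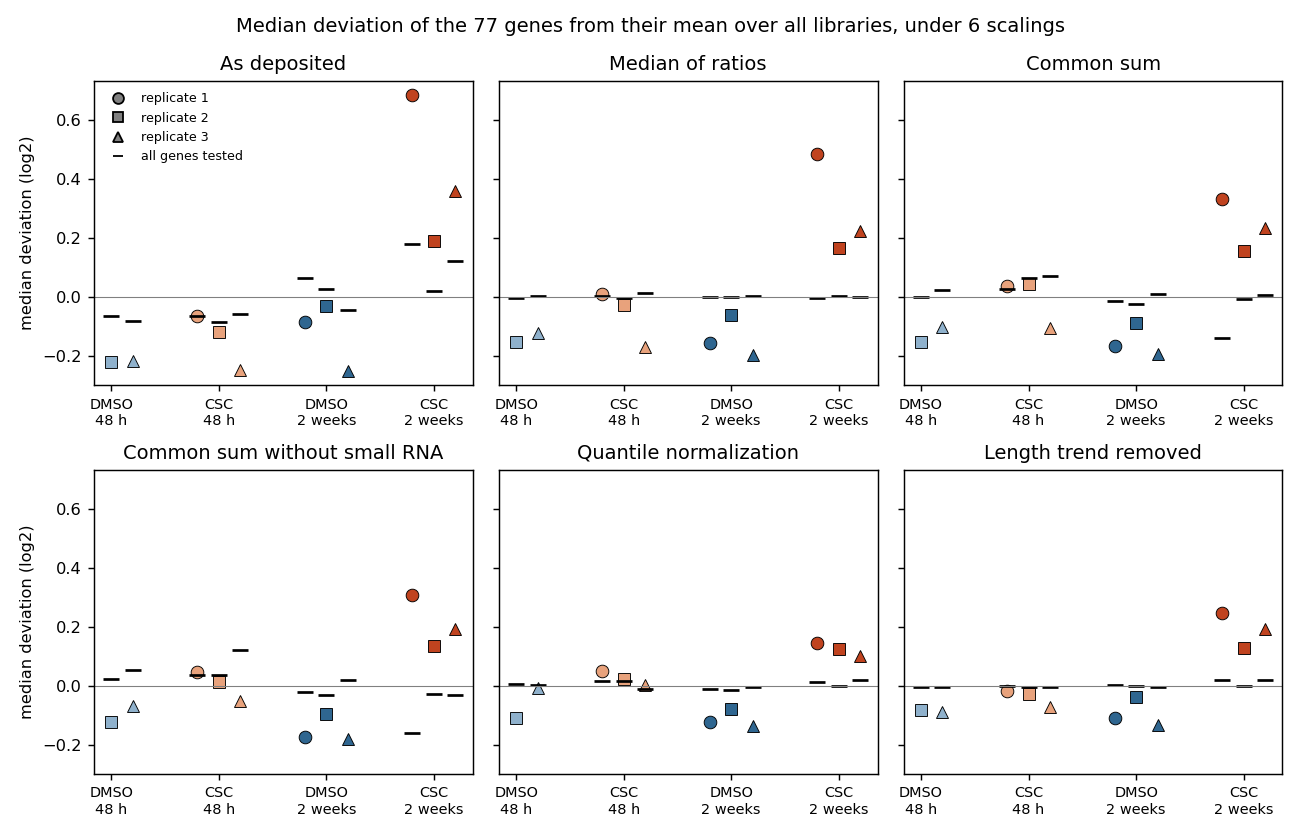
Median deviation (log2) of the 77 genes from their mean over the 11 libraries, by library, under the deposited and 5 other scalings. Coloured symbols are replicates and black dashes the median of all genes tested in the same library. The 3 CSC libraries of 2 weeks are the highest under each scaling, between 0.10 and 0.14 after quantile normalization and between 0.19 and 0.69 as deposited.

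Among relatives of the family, the paralogs did not pass at 2 weeks. These genes encode near copies that replace a ribosomal protein in some tissues. RPL3L and RPL10L were below 0.5 FPKM in each library and not tested. Of the 6 tested, 0 were called by limma, where 3.01% of all genes were called higher, and 4 had an unadjusted p under 0.05, as 24.6% of all genes did. RPL39L had a value of 0.63 ± 0.19 (adjusted p = 0.0758), RPL36AL of 0.41, RPL22L1 of 0.40, RPL7L1 of 0.26, RPS27L, a p53 target, of 0.14 and RPL26L1 of 0.07. GNB2L1, the scaffold RACK1 on the small subunit, rose by 0.49 ± 0.13 (adjusted p = 0.0445). FAU, whose product is cleaved into a ubiquitin-like part and a ribosomal protein, had a value of 0.50 (adjusted p = 0.0635).

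Mitochondrial ribosomal protein genes, which serve the separate ribosome of the organelle, had a median of 0.33 at 2 weeks with 1 of 76 called, MRPL10 (0.62 ± 0.12, adjusted p = 0.0136). That is 1.32% of the list, below the 3.01% of all genes called higher. Of the 76 values 72 were positive, as were 8137 of all 12506 genes. An unadjusted limma p under 0.05 was found for 42 of them, and for 24.6% of all genes. MRPS18B, next by p, had a value of 0.41 (adjusted p = 0.0575). Of 15 translation factors and other TOP mRNAs 3 rose (20%), namely EEF1G, EIF3L and EIF4B, with a median of 0.40. Of 34 genes of ribosome assembly and RNA polymerase I, 2 rose, the rRNA methyltransferase gene FBL (0.74 ± 0.15, adjusted p = 0.0144) and POLR1D, with a median of 0.16. Their share of 5.88% is near the 3.01% called higher and the 5.41% called in either direction among all genes. RIOK1, a kinase of small subunit maturation, had values of 0.44 at 48 hours (adjusted p = 0.118) and 0.10 at 2 weeks.

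Of 13 genes that control TOP mRNAs or MTOR, 1 rose (7.69%, against 3.01% of all genes called higher). It was EIF4EBP1, a repressor of translation initiation that MTOR inactivates (0.80 ± 0.15, adjusted p = 0.00846). EIF4EBP1 was at 45.3, 37.4 and 38.2 FPKM in DMSO and at 86.7, 56.2 and 71.5 in CSC, without overlap. LARP1 had a value of 0.18 ± 0.10 (adjusted p = 0.313) and MYC, a transcription factor that drives ribosome production, of 0.25 ± 0.15 (adjusted p = 0.313). Among 12 host genes of small nucleolar RNAs, whose transcripts often carry TOP tracts, SNHG5, SNHG6 and SNHG16 rose (0.77, 0.57 and 0.60). That is 25% of the list, against 3.01% of all genes called higher. The list median was 0.52, and 3 values were negative, the lowest -0.33. At 48 hours the median of the host genes was 0.26 and 10 of the 12 values were positive, as were 6296 of all 12506 genes. In each of these lists 0 genes fell at 2 weeks and 0 were called at 48 hours.

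**Figure D5:**
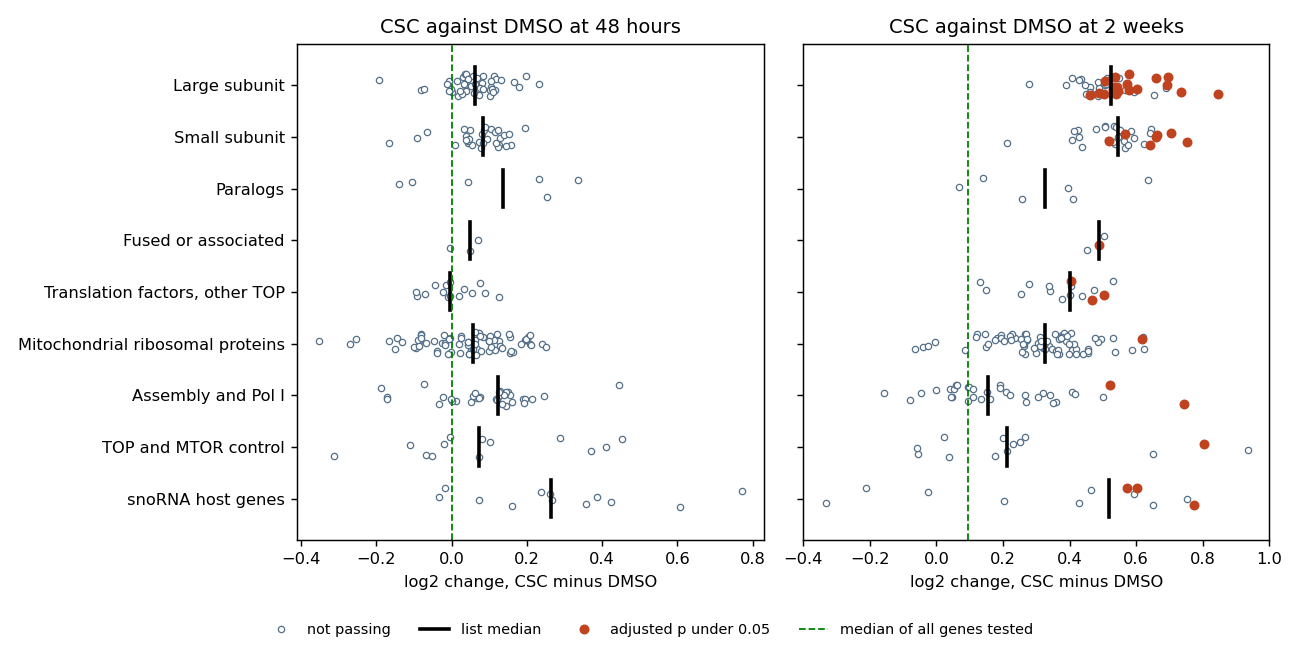
Log2 change of each gene of the ribosomal protein lists and of 7 related lists for CSC against DMSO at 48 hours (left) and 2 weeks (right). Filled points passed the test, thick bars are list medians and the dashed line is the median of all genes tested. At 2 weeks the medians run from 0.16 for assembly genes to 0.55 for the small subunit, against 0.09 for all genes. RPL21 is not drawn.

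The start sites of these genes show the tract by which TOP mRNAs are recognised. RefSeq promoter windows of build GRCh38.p14 matched 62 of the 77 genes by symbol. Each start was searched on the strand of the gene for a C as the first transcribed base followed by at least 4 pyrimidines (C or T in the DNA). Such a tract was found at a start of 46 of the 62 genes (74.2%), of 28 of 38 in the large and 18 of 24 in the small subunit. Over all 35116 starts in the table the share was 4.07%, and over the 77 starts of the family 59.7%. Tracts ran from 5 to 19 bases with a median of 8. The median log2 change at 2 weeks was 0.54 in the 46 genes with a tract and 0.51 in the 16 without, over genes that share libraries and with no test.

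Windows of 30 bases are given below for 5 genes among those with the largest called changes, for RPS6 because of its place downstream of MTOR, and for RPL28 and RPS26, with the smallest changes apart from RPL21. They run 5′ to 3′, with 10 bases before the annotated start and 20 from it, and the tract is in capitals.
RPL13A, chr19:49487598-49487627, plus strand: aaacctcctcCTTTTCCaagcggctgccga
RPL41, chr12:56116623-56116652, plus strand: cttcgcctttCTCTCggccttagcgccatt
RPL12, chr9:127451387-127451416, minus strand: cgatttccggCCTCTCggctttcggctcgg
RPLP0, chr12:120201092-120201121, minus strand: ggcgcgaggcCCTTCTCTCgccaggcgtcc
RPS12, chr6:132814559-132814588, plus strand: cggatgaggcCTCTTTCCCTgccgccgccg
RPS6, chr9:19380217-19380246, minus strand: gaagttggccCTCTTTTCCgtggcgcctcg
RPL28, chr19:55385922-55385951, plus strand: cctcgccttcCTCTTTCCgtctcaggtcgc
RPS26, chr12:56041908-56041937, plus strand: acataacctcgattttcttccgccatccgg
RPL28, with one of the smallest changes, has a tract of 8 bases. Of the 5 genes with large changes, RPL13A, RPL41 and RPL12 have shorter tracts (7, 5 and 6). RPLP0 and RPS12 have longer ones (9 and 10). The RPS26 window holds no tract at the annotated start, which begins with G, and a run of pyrimidines lies a few bases further in. A tract at an annotated start is a match of letters and was not measured as a start in these cells.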

How the data were processed

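Per the labels' protocols, ribosomal RNA was removed from A549 RNA (Ribo-Zero Gold), and libraries were sequenced on a HiSeq2000 and aligned to hg19 with TopHat2 2.0.9 through BaseSpace. CASAVA 1.7.1a5 is listed too, per the submitters' processing notes. Quantifier, annotation, strand setting and scaling: not given in the sources used here. The authors deposited FPKM per gene and locus with bounds, and no counts, so no count model was used.

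FPKM was summed over loci (25275 lines, 23608 symbols). The 1 symbol with a failed estimate was left out. The 12506 genes reaching FPKM 1 in 2 or more libraries were tested as log2(FPKM + 0.5) with limma 3.58.1 in R 4.3.3 (lmFit, contrasts.fit, eBayes with trend), in 1 fit of all 11 libraries and 4 groups, with Benjamini-Hochberg adjustment over all genes tested. A gene is called, and said to have risen or fallen, at an adjusted p under 0.05. Values are differences of log2(FPKM + 0.5) ± SE, which understate changes of low genes. The procedure was tested on simulated data. No p is given for sums over the family.

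Members, lists and the rule for named genes were chosen with earlier results of these data known. Named genes were, per comparison, the 4 largest called changes each way or, with fewer than 2 calls, the 3 smallest p, with the highest and lowest levels, fixed genes such as RPLP0, RPL5, RPS6 and RPS19, and the 2 smallest p of each related list. Genes called in role and related lists, and pseudogenes, were named after their values were seen. Values of 2 single genes are not reported here; both stayed in every fit, and the one that is a family member stayed in every count and sum.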

Additional observations from a re-analysis of the deposited data

How the results depend on the processing

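At 2 weeks, 27 ribosomal protein genes were higher. Without a filter on low values 7 were, fitting the libraries of 2 weeks by themselves 17, with a common sum 43, also without small RNA, and on libraries scaled to a common ribosomal protein sum, chosen after seeing the data, 1 was higher and 1 lower. Of all genes, 0.948% were called higher without a filter and 4.66% with the libraries of 2 weeks alone. With a common sum it was 2.11%, and 1.87% without small RNA. Leaving out 1 library gave 0 to 73, with 0 lower, where 0.585% to 10.5% of all genes were called higher. Of the 27 calls, 26 were kept under median-of-ratios scaling, 16 under quantile normalization and 17 with the length trend removed, a setting also chosen after seeing the data. The replicate numbers do not meet the rule for pairing, under which every same-numbered pair would correlate over 0.1. Such libraries of different groups had correlations of -0.202 to 0.311, over 0.1 in 5 of 15 pairs. All 3 pairs of replicate 1 were among these (0.19, 0.222 and 0.311), 4 pairs of other numbers were under -0.1, and in 13 of 24 comparisons a library correlated best with its own number. With the replicate block 57 genes were higher, all 27 among them, and 4.76% of all genes were called higher. In the other comparisons 0 genes were called under each setting run. The log2 ratio of the summed FPKM at 2 weeks, 0.55, was 0.24 under quantile normalization, 0.29 with the length trend removed and 0.41 to 0.67 without 1 library, and at 48 hours 0.03 to 0.12 without 1 library. The large to small subunit log2 ratio at 2 weeks, -0.0013, was 0.0274 (SD 0.0167) with the length trend removed and -0.014 (SD 0.0265) to 0.0178 (SD 0.0091) without 1 library.

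A common ribosomal protein sum sets the family to 0 by construction. Under it, 13 values at 2 weeks that were called as deposited or under this scaling turned negative: RPL11 -0.0488, RPL22 -0.0178, RPL27A -0.0425, RPL30 -0.0164, RPL36A -0.011, GNB2L1 -0.0645, EEF1G -0.0487, EIF3L -0.15, RPL28 -0.27, RPL26L1 -0.47, RPS27L -0.41, LARP1 -0.37 and RIOK1 -0.41. Another 16 values of named genes at 2 weeks changed sign without being called either way. Under the other settings 0 called values of named genes changed sign at either time. The cause of the changes in count was not tested. Depth in reads is unknown, and 2 or 3 libraries per group limit the precision.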
